A study of Mus musculus with 6 samples.

Results

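The EGF-family ligands and the ERBB receptors were examined in sorted cells of the inflamed mouse colon that the authors named IL-11+ and IL-11- fibroblasts. The 10 genes described are the ligands *Ereg*, *Areg*, *Btc*, *Nrg1*, *Hbegf* and *Tgfa*, the receptors *Egfr*, *Erbb2* and *Erbb3*, and *Errfi1*, which encodes an inhibitor of these receptors. They were chosen by gene symbol, with earlier results of these data known, and all 10 have a row among the 20327 symbols of each library. Ligands of this family are made as membrane-anchored precursors, and metalloproteinases release the soluble factor. A ligand joins a pair of receptors, whose kinases then signal through the RAS to ERK chain, among other routes. In the intestine, stromal and epithelial cells both make such ligands, which act on the growth and repair of the epithelium.

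Both groups came from C57BL/6 mice that carry *Il11-Egfp*, a bacterial artificial chromosome with *Egfp* placed in *Il11*, kept as 1 transgenic line. The mice were male, 9 to 15 weeks old, and drank 1.5% dextran sulfate sodium (DSS), which injures the colonic epithelium, for 5 days before a return to plain water. On day 7, cells of the colon negative for Ter119, CD45, CD31 and EpCAM were sorted into EGFP-Negative and EGFP-Positive cells, taken as IL-11- and IL-11+ and here called EGFP- and EGFP+ cells, to ask which genes mark the cells that make IL-11 in colitis. RNA was read by 5′Tag-seq, which counts tags from the 5′ side of polyA transcripts, in 3 libraries per group with 1022851 to 1169817 tags each. EGFP stands for *Il11* only as far as the transgene follows the gene, no group without DSS was part of the comparison, and RNA of cells in the EGFP-Negative gate that are not fibroblasts is part of the EGFP- values.

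Values of a group are given in the order of replicates 1, 2 and 3 throughout. The sort was checked on *Il11* itself. It had 28, 51 and 89 tags in EGFP- cells against 1357, 732 and 2658 in EGFP+ cells. All EGFP+ libraries were far above all EGFP- libraries, and EGFP+ replicate 2 was the lowest of its group. Tags of the reporter transcript can be part of these counts, because *Egfp* lies within *Il11* sequence. The 9 fibroblast markers were all tested, and their summed level was 22122, 22107 and 24635 normalized CPM (tags per 1000000 after TMM scaling) in EGFP- and 42227, 33957 and 30313 in EGFP+ cells. *Dcn*, which encodes decorin, was the most abundant of them, so both groups carried the RNA of fibroblasts. Of the 9, *Col3a1* and *Pdpn* were called higher in EGFP+ cells (log2 fold changes 1.04 and 1.06) and 7 were not called, among them *Dcn* at 0.67 and, on the other side of 0, *Lum* at -0.64 and *Vim* at -0.27. Without EGFP- replicate 1 they were under the fold threshold, at 0.85 and 0.96, as was *Pdpn* without EGFP+ replicate 1, also at 0.96. With scaling by library size only both were under it, at 0.96 and 0.97, which left 0 of the 9 called. *Thy1*, at 0.88 and not called, was called higher without EGFP- replicate 3 (1.21) or EGFP+ replicate 2. Of the 50-nt windows of *Col3a1*, 6.72% occur in another annotated gene.

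Markers of cells that the gates were set to remove were low. *Epcam* had 1, 0 and 0 tags in EGFP- cells against 0, 0 and 1 in EGFP+ cells. *Pecam1*, an endothelial gene, had 1 tag in EGFP- replicate 2 and 0 tags in every other library, and *Ptprc*, which encodes CD45, reached 7 tags at most. Markers of other stromal cells differed strongly between the groups. The 7 pericyte and smooth muscle markers summed to 3595, 3704 and 4074 normalized CPM in EGFP- and to 269, 276 and 419.6 in EGFP+ cells, with *Rgs5* the most abundant, and all 7 were called lower. *Kit* and *Ano1*, markers of interstitial cells of Cajal, summed to 205, 119.7 and 218 in EGFP- and to 1.06, 0 and 21 in EGFP+ libraries, *Ano1* being the more abundant, and both were called lower. The 4 endothelial markers with a row summed to 36.3, 24.5 and 37 in EGFP- and to 18, 7.11 and 6.68 in EGFP+ libraries, nearly all from *Tek* (log2 fold change -1.59, called lower, but not without EGFP+ replicate 2, at -1.40). With 1 library left out, the log2 fold change of *Tek* ranged from -2.30 to -1.24. The 4 mesothelial markers, led by *Wt1*, summed to 13.4, 4.71 and 15.6 against 0, 0 and 1.91. For the 9 immune markers, the sums of 22, 22.6 and 18.1 in EGFP- and 41.3, 19.3 and 17.2 in EGFP+ libraries overlapped. *Cd68* led them over both groups together. In EGFP+ cells *S100a8* led, with 13, 1 and 12 tags against 2, 4 and 2 in EGFP- cells. In these bulk samples, fewer cells of a type and less RNA per cell cannot be told apart.

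A gene was tested when it had 10 or more tags in 3 or more libraries, and a call required an adjusted p under 0.05 together with a fold change over 2. Calls rest on the quasi-likelihood test of edgeR, with p adjusted by the Benjamini-Hochberg method over all 9334 tested genes. Of the 10 genes, 7 were tested and 4 of them, the ligands *Ereg*, *Areg*, *Btc* and *Nrg1*, were called higher in EGFP+ cells, where 3.44% of all tested genes were. None of the 7 was called lower, by edgeR or by DESeq2, where 6.37% of all tested genes were by edgeR, and at an unadjusted p under 0.05 there were 4 higher genes and 1 lower gene, *Hbegf*, where 12.2% and 14.5% of all tested genes were. For 5 of the 7 all EGFP+ libraries were above all EGFP- libraries, and for 2 they were all below, against 14.5% and 16.7% of all tested genes. *Btc* passed the filter through its EGFP+ libraries, although 2 of its EGFP- libraries also reached 10 tags, and *Hbegf* passed it through its EGFP- libraries. *Tgfa*, *Erbb2* and *Erbb3* were under the filter. No 50-nt window within the first 300 nt of a transcript of the 10 genes occurs in a transcript of another annotated gene, so that none of them shares 5′ tag sequence by this measure.

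*Ereg* encodes epiregulin, a ligand of the EGF receptor and of ERBB4, and lies on the plus strand of chromosome 5, from 91074622 to 91093646 in GRCm38. It had 1088, 1209 and 1348 tags in EGFP- cells against 5321, 4836 and 6492 in EGFP+ cells. The EGFP- libraries were close together, and the lowest EGFP+ library, replicate 2, was still far above them. After scaling this was 1095 ± 51.2 and 5580.3 ± 643 normalized CPM (SD, n = 3), and the log2 fold change was 2.35 with an SE of 0.18 (adjusted p = 7.59e-08 by edgeR). Libraries of the same number were taken as pairs, although the labels do not name the mouse. Within pairs 1, 2 and 3 the EGFP+ level was 5.43, 4.31 and 5.59 times the EGFP- level.

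*Nrg1* encodes neuregulin 1, the ligand of ERBB3 and ERBB4, and spans 31814551 to 32884029 on the minus strand of chromosome 8. It had 251, 193 and 159 tags in EGFP- cells against 1822, 1532 and 1328 in EGFP+ cells. Replicate 1 was the highest and replicate 3 the lowest in both groups, and the groups were far apart. The normalized CPM was 184 ± 54.6 in EGFP- and 1584 ± 333 in EGFP+ cells (SD, n = 3), a log2 fold change of 3.11 with a 95% interval of 2.63 to 3.59 (edgeR adjusted p = 4.59e-08). Within pairs the ratio was 8.06, 8.55 and 9.7, in relative terms a narrower range than that of the libraries of either group. For *Ereg* and *Btc* the ratio instead ranged more widely than the libraries of either group.

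*Btc*, which lies at 91357261 to 91402994 of chromosome 5 (minus strand), encodes betacellulin, which binds the EGF receptor and ERBB4. Its tags were few in EGFP- libraries, 5, 19 and 11 in replicates 1, 2 and 3, against 112, 94 and 110 in EGFP+ cells. The EGFP+ libraries were nearly level, whereas the EGFP- libraries differed widely for so few tags. Normalized CPM went from 10.6 ± 6.7 to 106 ± 11.7 (SD, n = 3), and the log2 fold change was 3.32 (95% interval 2.70 to 3.94, edgeR adjusted p = 3.18e-07). The ratio within pairs was 24.9, 5.33 and 11.6, so the direction was shared by the 3 pairs and the size of the difference was uncertain.

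*Areg* encodes amphiregulin, a ligand of the EGF receptor, and lies on the plus strand of chromosome 5 from 91139599 to 91148432. It had 15, 37 and 32 tags in EGFP- cells against 63, 82 and 147 in EGFP+ cells. EGFP+ replicate 3 was well above the rest of its group, and the groups did not overlap. This was 25.2 ± 10.3 and 96.7 ± 38.5 normalized CPM (SD, n = 3) and a log2 fold change of 1.94 (SE 0.3, edgeR adjusted p = 0.000141). Within pairs the ratio was 4.66, 2.39 and 5.34. Without EGFP+ replicate 3 the log2 fold change of *Areg* was 1.57, and it was still called.

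*Hbegf* encodes heparin-binding EGF-like growth factor and differed from the other tested ligands in direction. It had 30, 23 and 24 tags in EGFP- cells against 14, 17 and 6 in EGFP+ cells. All EGFP+ libraries were below all EGFP- libraries, with replicate 3 the lowest, but each value rests on few tags. The log2 fold change was -0.89 with a 95% interval of -1.66 to -0.12, and the gene was not called (edgeR adjusted p = 0.12). Across the alternative settings its adjusted p was between 0.0528 and 0.381, and it was called in 0 of 14. *Tgfa*, which encodes transforming growth factor alpha, had 2 tags in EGFP- replicate 3 and 0 tags in every other library, so that no difference was detectable at this depth.

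The other ligand genes of the family, *Egf*, *Epgn*, *Nrg2*, *Nrg3* and *Nrg4*, were all under the filter. *Epgn* encodes epigen and lies beside *Ereg*. It had 1, 0 and 0 tags in EGFP- cells against 5, 3 and 6 in EGFP+ cells. With TMM scaling of the library sizes, the ratio of the summed tags was 15.6, with a counting interval of 2.38 to 661 (95%, exact). The EGFP+ libraries all held more tags than any EGFP- library, and the width of the interval comes from the single EGFP- tag. With the filter of 10 summed tags or none, *Epgn* was called higher (edgeR adjusted p = 0.0308 and 0.0294). *Egf*, *Nrg2*, *Nrg3* and *Nrg4* had 2 tags at most in any library. A floor of 3 tags stands at 2.57 to 2.93 CPM of the library total, and such floors and intervals cover counting error only, since tags copied by PCR are not independent molecules.

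The tags of the 11 ligand genes were added for each library as a description, without a test. The sum was 1330.0, 1396 and 1297 normalized CPM in EGFP- and 7776, 6669 and 7714 in EGFP+ cells. The EGFP- libraries were within a narrow range, and the mean of the EGFP+ libraries was 5.51 times their mean. *Ereg* made up 78.1%, 81.6% and 85.4% of the ligand tags in EGFP- and 72.5%, 73.6% and 80.3% in EGFP+ cells. These ranges overlapped, although the share was lower in the EGFP+ library of each pair. The share of *Nrg1* was 18%, 13% and 10.1% in EGFP- and 24.8%, 23.3% and 16.4% in EGFP+ cells. It was higher in EGFP+ cells within all 3 pairs, and the groups overlapped between EGFP- replicate 1 and EGFP+ replicate 3. The share of *Hbegf* was 1.52% to 2.15% in EGFP- and 0.0742% to 0.259% in EGFP+ libraries, where the sum it is taken of was larger. A share of tags is not a comparison of levels between these genes. In the same EGFP+ libraries all 7 pericyte and smooth muscle markers were called lower and 2 of the 9 fibroblast markers higher (0 with scaling by library size only), and their part in the differences of *Ereg*, *Nrg1*, *Btc* and *Areg* was not tested.

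**Figure D1:**
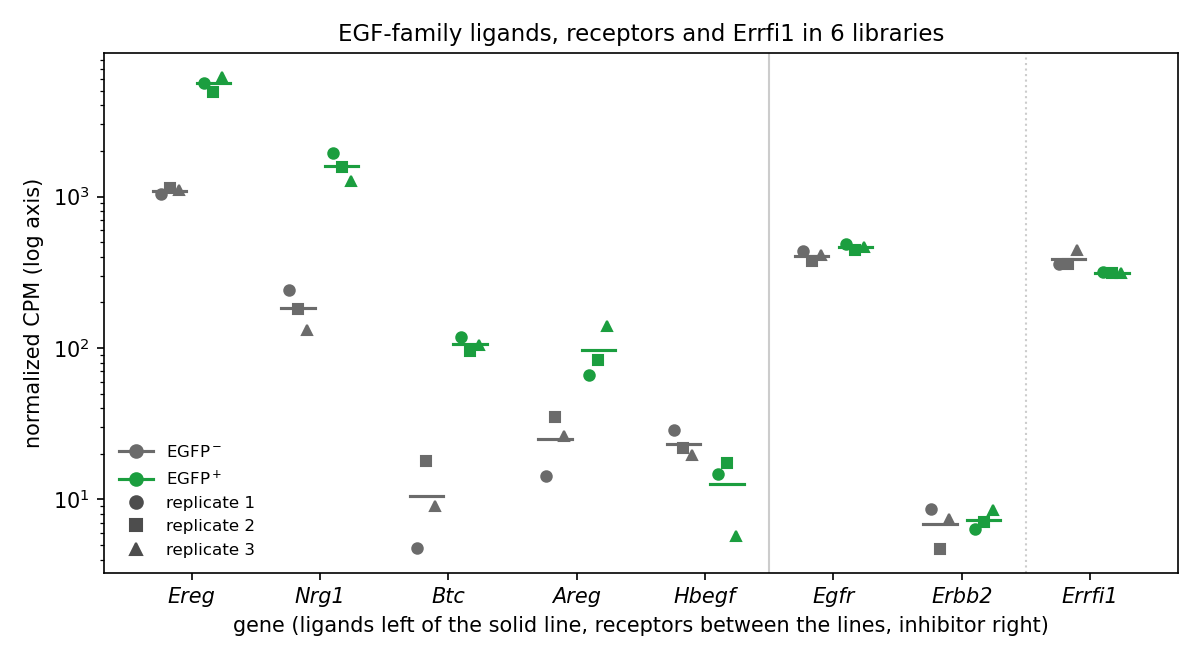
Normalized CPM on a log axis of 8 of the 10 genes in each library, with EGFP- in grey and EGFP+ in green, a symbol per replicate and a bar at the group mean. *Ereg*, *Nrg1*, *Btc* and *Areg* stand higher in every green point than in any grey point. *Egfr* is also slightly higher in every green point, but lies between 374 and 486 in all 6 libraries. *Tgfa* and *Erbb3* are not drawn because they had 0 tags in some libraries, which a log axis cannot show.

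*Egfr*, on the plus strand of chromosome 11 from 16752203 to 16918158, encodes the EGF receptor and was the receptor gene with enough tags for a test. It had 458, 397 and 504 tags in EGFP- cells against 459, 434 and 483 in EGFP+ cells. In normalized CPM the EGFP+ libraries, at 486, 441 and 461, were all slightly above the EGFP- libraries, at 437, 374 and 414. With a log2 fold change of 0.18, the 95% interval was -0.15 to 0.51, which lies inside the fold threshold on both sides, and *Egfr* was not called (edgeR adjusted p = 0.519). Transcripts of the receptor were thus present in both groups.

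*Erbb2* (98412470 to 98437716 of chromosome 11), the receptor without a known ligand of its own, had 9, 5 and 9 tags in EGFP- cells against 6, 7 and 9 in EGFP+ cells. The groups overlapped. After TMM scaling of the library sizes, the ratio of the summed tags was 1.07 with a counting interval of 0.568 to 2.01 (95%, exact). *Erbb4* reached 3 tags at most, so that a difference could not be detected. *Erbb3* (128567523 to 128589652 of chromosome 10), the neuregulin receptor whose own kinase is weak, had 3, 2 and 10 tags in EGFP- and 0 tags in each EGFP+ library. Of the 15 tags, 10 came from EGFP- replicate 3. *Erbb3* was called lower without a filter on low tags (edgeR adjusted p = 0.00924) and with a filter of 10 tags summed over the libraries (edgeR adjusted p = 0.0217).

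Glial and epithelial cells are known to express *Erbb3*, and their markers were read beside it. Of the glial markers, *Gfap* had 22, 23 and 26 tags in EGFP- cells against 1, 0 and 1 in EGFP+ cells. It was called lower (fitted log2 fold change -4.76, SE 0.595, edgeR adjusted p = 1.48e-05). Because its EGFP+ tags lie under the floor of 3 tags, the level against that floor was at least 7.05 times lower, and the exact fold is not measured. *Cdh19*, *S100b* and *Sox10* were under the filter. *Cdh19* had 24, 9 and 36 tags in EGFP- cells against 2, 1 and 1 in EGFP+ cells. *S100b* and *Sox10* had 3, 9 and 4 and 2, 3 and 5 tags in EGFP- cells, and 0 tags in every EGFP+ library. Of the 9 epithelial markers with a row, the summed level was 31.5, 25.4 and 52.6 in EGFP- and 7.42, 12.2 and 23.8 in EGFP+ cells, led by *Lgals4*. This gene was the only 1 of them tested, and its call as lower (log2 fold change -1.26) was lost without EGFP- replicate 3 (-1.12), EGFP+ replicate 1 (-1.02) or EGFP+ replicate 2 (-1.16). *Krt8*, *Krt19* and *Krt20* had 7, 8 and 6 tags in EGFP- replicate 3, the library with the most *Erbb3* tags, and at most 2 tags in any other library. *Epcam*, *Krt18*, *Cldn7* and *Muc2* had 2 tags at most in any library of either group. The part of glial and epithelial RNA in the *Erbb3* tags was not tested.

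*Errfi1*, on the plus strand of chromosome 4 from 150853919 to 150868892, is a gene that EGF receptor signalling is known to induce and whose product blocks the receptor kinase. It had 373, 381 and 539 tags in EGFP- cells against 300, 308 and 330 in EGFP+ cells. The EGFP+ libraries were nearly equal after scaling, at 318, 313 and 315 normalized CPM, and all were below the EGFP- libraries, of which replicate 3 was the highest. The log2 fold change was -0.29 (95% interval -0.63 to 0.05), and *Errfi1* was not called (edgeR adjusted p = 0.265).

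The genes around this ligand and receptor system were read as lists. Over all tested genes the median log2 fold change was -0.01, 3.44% were called higher and 6.37% lower by edgeR, and 12.2% were higher and 14.5% lower at an unadjusted p under 0.05. Among the sheddases, which release the ligands, and their iRhom partners, 8 of 10 genes were tested, with a median of 0.31, 2 called higher and 0 called lower by edgeR and by DESeq2 (4 higher and 1 lower at an unadjusted p under 0.05). *Rhbdf2*, which encodes a partner that brings the sheddase ADAM17 to the cell surface, had 26, 18 and 13 tags in EGFP- cells against 70, 41 and 34 in EGFP+ cells. Each EGFP+ library was above all EGFP- libraries, and replicate 1 was the highest in both groups. *Rhbdf2* had a log2 fold change of 1.50 (SE 0.342, edgeR adjusted p = 0.00461). *Adam12*, which encodes a metalloproteinase, had 9, 24 and 28 tags in EGFP- cells against 59, 50 and 32 in EGFP+ cells, and its lowest EGFP+ library was only just above the highest EGFP- library. Its log2 fold change was 1.38 (SE 0.335, edgeR adjusted p = 0.00738). Of the 50-nt windows of *Adam12*, 2.11% occur in other annotated genes, so that a part of its tags may be shared. With the requirement of 10 tags in all 6 libraries, *Adam12* was no longer tested.

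Of 12 listed genes that restrain the receptors, 11 were tested, with a median log2 fold change of 0.20, 2 called higher and 0 called lower by edgeR and by DESeq2 (4 higher and 2 lower at an unadjusted p under 0.05). *Cbl* encodes a ubiquitin ligase that sends active receptors to degradation, and it had 35, 60 and 51 tags in EGFP- cells against 84, 105 and 87 in EGFP+ cells. *Ptprk*, which encodes a receptor-type phosphatase, had 65, 83 and 51 tags in EGFP- cells against 150, 121 and 105 in EGFP+ cells. The groups did not overlap for either gene. Of the 50-nt windows of *Cbl*, 0.925% occur in another annotated gene. The log2 fold change of *Cbl* was 1.08 (SE 0.214, edgeR adjusted p = 0.0015) and that of *Ptprk* 1.07 (SE 0.226, edgeR adjusted p = 0.00247). Both stood just over the fold threshold, and with scaling by library size only neither was called, *Ptprk* being at 0.99 and *Cbl* at the threshold. *Cbl* was also under the threshold without EGFP- replicate 1 (0.92) or EGFP+ replicate 2 (0.97), and *Ptprk* without EGFP- replicate 3 (0.86) or EGFP+ replicate 1 (0.89). Without EGFP- replicate 2 or EGFP+ replicate 3 the count of higher genes was 3 and that of lower genes was 1.

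All 18 genes of the adaptors and of the RAS to ERK chain were tested, and 0 were called in either direction by edgeR or by DESeq2, where 3.44% of all tested genes were called higher and 6.37% lower by edgeR. At an unadjusted p under 0.05 there were 1 higher and 0 lower genes, and the median log2 fold change of the list was 0.04. The smallest p was that of *Shc1*, which encodes an adaptor, with 79, 75 and 113 tags in EGFP- and 118, 130 and 111 tags in EGFP+ cells. After scaling its groups did not overlap, and the log2 fold change was 0.60 (95% interval 0.22 to 0.97, edgeR adjusted p = 0.0286), under the fold threshold. *Plcg1* (phospholipase C gamma) at -0.45 and *Gab1* (a docking protein) at -0.36 had edgeR adjusted p of 0.412 and 0.531.

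Of 15 genes known as feedback regulators or targets of ERK, 12 were tested, with a median log2 fold change of 0.31, 2 called higher and 0 called lower by edgeR and by DESeq2 (4 higher and 1 lower at an unadjusted p under 0.05). The most abundant of the list was *Egr1*, an early response gene, at 6019, 5821 and 4201 normalized CPM in EGFP- and 3472, 3875 and 3676 in EGFP+ cells, with a log2 fold change of -0.54 (edgeR adjusted p = 0.0554), and it was not called. *Ier3*, another early response gene, had 717, 563 and 556 tags in EGFP- cells against 1607, 1254 and 1889 in EGFP+ cells, with the groups well apart. Its log2 fold change was 1.52 (SE 0.194, edgeR adjusted p = 1.92e-05). *Phlda1*, also an early response gene, had 458, 531 and 549 tags in EGFP- cells against 1008, 744 and 1004 in EGFP+ cells. Its groups did not overlap either, and its fold change was only just over the threshold (95% interval of the log2 fold change 0.64 to 1.37, edgeR adjusted p = 0.000438). In a fit that blocks on the replicate number *Phlda1* had a log2 fold change of 0.99 and the count of higher genes in this list was 1 in place of 2. *Phlda1* was also under the fold threshold without EGFP- replicate 1 (0.96), EGFP- replicate 3 (0.98), EGFP+ replicate 1 (0.89) or EGFP+ replicate 3 (0.98), with scaling by library size only (0.92), with 10 tags required in all libraries (0.96) and, narrowly, with iterative TMM. Genes whose products curb ERK signalling were not called. Their log2 fold changes were 0.62 for *Spry1*, 0.03 for *Spry2*, 0.35 for *Spry4*, 0.49 for *Spred1*, 0.30 for *Spred2*, 0.18 for *Spred3* and -0.02 for *Dusp6*.

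**Figure D2:**
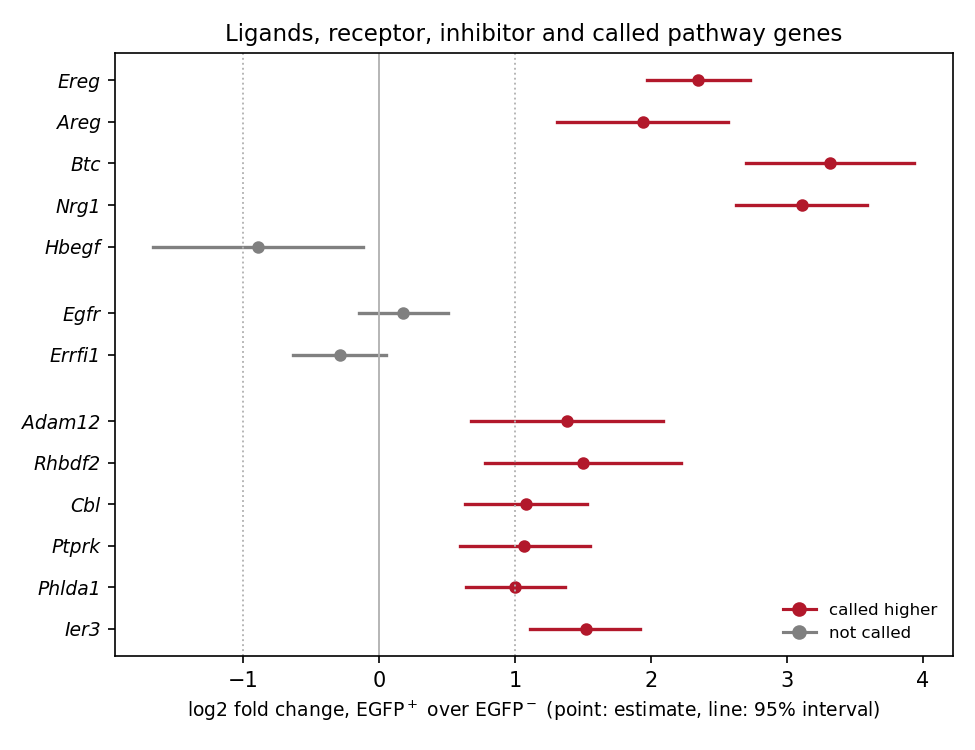
Log2 fold change of EGFP+ over EGFP- cells for the 7 tested genes of the family and the 6 called genes of the pathway lists, with the estimate as a point, its 95% interval as a line, dotted lines at a fold change of 2 in either direction, and red for genes called higher. The ligands *Btc* and *Nrg1* lie at 3.32 and 3.11, while *Egfr* at 0.18 and *Errfi1* at -0.29 have intervals that include 0.

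*Ereg*, *Areg*, *Btc* and *Epgn* lie in 1 segment of chromosome 5, from 91027464 to 91402994 (375531 bases). Within 500 kb of the segment 15 annotated genes have a row, these 4 included, and 9 of the 15 were tested. Of the 9, 6 were called higher and 0 lower by edgeR and by DESeq2 (7 higher and 1 lower at an unadjusted p under 0.05), where 3.44% and 6.37% of all tested genes were by edgeR. The 6 include 3 of the 4 ligands that define the segment, and the others were the chemokine genes *Cxcl5*, *Cxcl2* and *Cxcl3*, which lie before *Epgn*. *Cxcl2* (90903871 to 90905938) had 192, 249 and 149 tags in EGFP- cells against 1020, 736 and 1231 in EGFP+ cells, with the groups well apart and a log2 fold change of 2.48 (SE 0.23). The log2 fold change of *Cxcl3* (90786103 to 90789600) was 1.79, with an SE of 0.326, and that of *Cxcl5* was 3.43. *Cxcl2* and *Cxcl3* share 30.6% and 32.7% of their 50-nt windows with each other, so that tags cannot be divided between them with certainty.

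The remaining tested genes of the region were not called. *Cxcl1* lies between *Cxcl3* and *Cxcl2*, and had a log2 fold change of 0.63 (95% interval 0.24 to 1.02, edgeR adjusted p = 0.0248), under the fold threshold. *Mthfd2l*, between the chemokine genes and *Epgn*, had 8, 10 and 7 tags in EGFP- cells against 13, 13 and 14 in EGFP+ cells, a log2 fold change of 0.82 (edgeR adjusted p = 0.19). *Parm1*, on the other side of *Btc*, had 35, 29 and 36 tags in EGFP- cells against 14, 21 and 18 in EGFP+ cells, and its log2 fold change was -0.75 (edgeR adjusted p = 0.0841). Raised and other genes thus lay side by side within the region. *Afm*, *Rassf6*, *Pf4*, *Cxcl15* and *Gm19619* had 4 tags at most in any library. *Nrg1*, on chromosome 8, is not part of the segment.

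**Figure D3:**
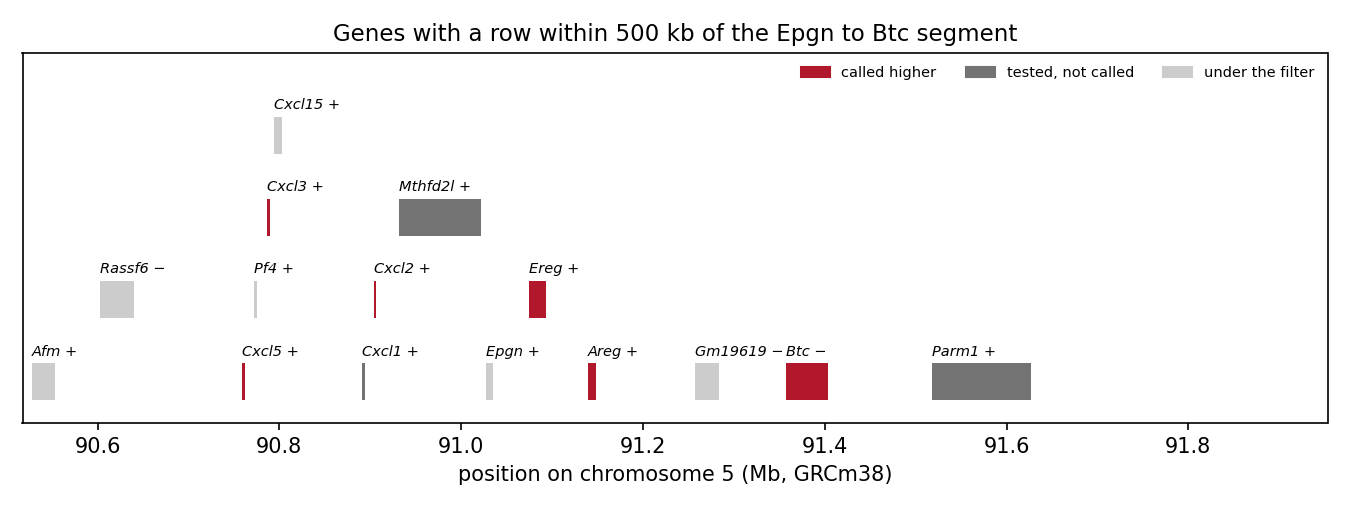
Position on chromosome 5 in Mb (GRCm38) of the 15 genes with a row within 500 kb of the *Epgn* to *Btc* segment, each with its strand; bars span the gene, stacking only separates the names; the shortest genes are drawn wider than they are. Red bars, *Cxcl5*, *Cxcl3*, *Cxcl2*, *Ereg*, *Areg* and *Btc*, were called higher, dark grey bars were tested and not called, and light grey bars were under the filter.

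Because *Areg*, *Btc* and, with few tags, *Epgn* stood higher in all EGFP+ libraries and lie in the same segment, their promoters were read from RefSeq (GRCm38.p6), as the 250 bases before each RefSeq start. For *Epgn*, *Erbb2* and 1 of the starts of *Errfi1* that start lies inside the gene as GENCODE places it, so that the window is partly or wholly within the GENCODE gene. Promoters were found for 6 of the 10 genes, and those of *Ereg*, *Nrg1*, *Hbegf* and *Erbb3* were not analysed here. The motifs searched were TGANTCA (AP-1) and TGACGTCA (CRE), each of which reads the same on both strands, and the NF-kB consensus on both strands. No motif overlapped another in these windows. Of 32851 promoters, 6.75% hold the AP-1, 1.55% the CRE and 7.25% the NF-kB motif in their 250 bases. The promoter of *Areg* (chr5:91139349-91139598, plus strand) held 1 CRE match, in capitals, which begins 61 bases before the start. No searched motif was found in the windows of *Btc* (chr5:91402995-91403244, minus strand) and *Epgn* (chr5:91027267-91027516, plus strand). The sequences are shown 5′ to 3′ to set the matched window beside its unmatched neighbours.
Areg: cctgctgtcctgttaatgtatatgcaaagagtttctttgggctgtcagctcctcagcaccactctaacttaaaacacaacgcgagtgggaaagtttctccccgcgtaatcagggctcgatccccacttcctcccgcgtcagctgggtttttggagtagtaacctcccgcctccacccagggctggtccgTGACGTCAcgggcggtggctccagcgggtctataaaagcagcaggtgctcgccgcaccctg
Btc: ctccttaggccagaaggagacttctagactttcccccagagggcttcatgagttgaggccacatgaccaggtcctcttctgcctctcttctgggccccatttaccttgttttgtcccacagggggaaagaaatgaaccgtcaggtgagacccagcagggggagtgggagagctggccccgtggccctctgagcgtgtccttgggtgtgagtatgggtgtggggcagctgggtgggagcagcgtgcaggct
Epgn: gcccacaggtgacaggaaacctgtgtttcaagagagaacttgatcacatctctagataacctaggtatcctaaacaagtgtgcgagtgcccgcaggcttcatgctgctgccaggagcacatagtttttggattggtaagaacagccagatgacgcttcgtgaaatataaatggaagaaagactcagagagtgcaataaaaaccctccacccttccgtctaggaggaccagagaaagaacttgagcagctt

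Among the remaining promoters, 1 of the starts of *Errfi1* had a CRE match, 51 bases before it, and *Tgfa*, *Egfr* and *Erbb2* had no match. *Errfi1* was not called, so a match to these letters was found both in a gene that rose and in one that was not called. A match is a stretch of letters and was not tested for binding.

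The profiles of *Ereg* and *Nrg1* over the 6 libraries were compared with those of 5063 genes whose mean count was 30 tags or more. Nearest to *Ereg* were *Hgf*, *Ptgs2* and *Fgf7*, with a root mean square difference of 0.161, 0.185 and 0.22 in log2 CPM after each gene was centred on its own mean. *Hgf* encodes hepatocyte growth factor, and had 140, 155 and 141 tags in EGFP- cells against 634, 643 and 641 in EGFP+ cells. Its EGFP+ libraries were more even than those of *Ereg*. *Fgf7*, which encodes keratinocyte growth factor, had 108, 129 and 162 tags in EGFP- cells against 463, 386 and 520 in EGFP+ cells, with replicate 2 the lowest EGFP+ library, as for *Ereg*. Nearest to *Nrg1* were *Bmp7*, *Ces1f* and *Igfbp5*, at 0.141, 0.16 and 0.252. *Bmp7*, which encodes a bone morphogenetic protein, had 24, 18 and 19 tags in EGFP- cells against 220, 161 and 136 in EGFP+ cells. Like *Nrg1* it was highest in replicate 1 of both groups and lowest in replicate 3 of the EGFP+ group. With 6 libraries in 2 groups, such a distance mostly measures a like difference between the groups.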

How the data were processed

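Per the authors' methods and submitters' notes, reads were trimmed with Cutadapt 1.18, mapped to mm10 RefSeq RNA with Bowtie2 2.2.5, and compared in R 3.5.1. The authors deposited the tag count of each gene symbol for each library, without normalization; molecular identifiers are not mentioned. Counts were analysed in R 4.3.3 with edgeR 4.0.16 (TMM, glmQLFit and glmQLFTest, Benjamini-Hochberg adjustment over all tested genes). This fit was tested on simulated data. The members, picked by symbol, and all gene lists were chosen with earlier results of these data known. The authors had already reported *Ereg* as elevated in IL-11+ fibroblasts. Counts of called genes beside the share of all tested genes are therefore a description.

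Named genes were all members and remaining family genes, the called genes of each pathway list or up to 4 with the smallest p, the 3 nearest profiles of *Ereg* and *Nrg1* (0.5 added to the CPM), genes within 500 kb of the chromosome 5 segment, *Il11* and markers. *Egr1* and the tested *Spry*, *Spred* and *Dusp* genes were chosen after values were seen. *Cblc*, *Cdh1* and *Cdh5* were not analysed here. Some genes of the lists, and the summed level of the glial markers, are not reported here. Positions and transcripts came from GENCODE mouse release M21 (GRCm38).

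Labels number the libraries of each group 1 to 3 and the methods name 3 mice. Over 5064 genes, deviations from the group means correlated between same-numbered libraries (r = 0.233, 0.219 and 0.27, across genes, which are not independent). The numbers were therefore taken as pairs, and whether a pair comes from a single mouse was not tested. Alternatives were RLE or iterative TMM factors, library size only, DESeq2 1.42.0, other filters, the replicate block, no fold threshold and each library left out.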

Additional observations from a re-analysis of the deposited data

How the results depend on the processing

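All 103 values of the 7 tested members under an alternative kept their direction and their call. Those without the fold threshold repeat the main fit, so their direction could not change and no call could be lost. The fold of *Hbegf*, never called, passed 2 without EGFP+ replicate 1 (-1.02) or 2 (-1.19). The log2 fold change ranged from 2.27 to 2.44 for *Ereg*, 2.91 to 3.34 for *Nrg1*, 2.99 to 3.90 for *Btc* and 1.57 to 2.24 for *Areg*. *Btc* was not tested where 10 tags were required in all libraries, which left 3 members called higher. With the replicate block, 337 genes were called higher and 648 lower, 4 members were higher, and the list of ERK feedback and target genes had 1 higher gene; apart from *Phlda1*, the block changed no call of a gene named here. Members called lower were 1 (*Erbb3*) with 10 tags summed over the libraries and with no filter.

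Without the fold threshold 638 genes were higher, and the adaptors and RAS to ERK chain had 1 higher, and receptor restraint and the sheddases each 3 higher and 1 lower gene. With 10 tags in all libraries, 256 genes were lower and 220 higher, where 595 and 321 were by the main filter. The sheddases then had 1 higher gene and the ERK list 1. The ERK list also had 1 with iterative TMM and with library size only, where receptor restraint had 0 higher. Leaving out a library gave 1 to 2 higher genes in the ERK list, and 1 to 3 higher and 0 to 1 lower in receptor restraint. The cause was not tested. The summed ligand ratio was 5.23 on library totals. At 1022851 to 1169817 tags per library, small differences of *Tgfa*, *Erbb2*, *Erbb4*, *Egf*, *Nrg2*, *Nrg3* and *Nrg4* are beyond reach.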
